A study of Homo sapiens with 18 samples.

Results

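The ZFP36 family of mRNA decay factors was followed in A2780 and Acis ovarian cancer cells by RNA-seq and ATAC-seq. Its members are the rows of the gene count table named ZFP36, ZFP36L1 and ZFP36L2, which are 3 of the 23622 genes listed. A2780 is a p53-proficient line that is sensitive to cisplatin. Acis, also named A2780cis, is the resistant line derived from it by long exposure to the drug. In culture, Acis cells were given 1 µM cisplatin every 3 passages. Cells of each line were left untreated (control) or were exposed to 200 µM cisplatin for 3 h, and 3 RNA-seq libraries represent each of these 4 groups. The labels name no allele or transgene for any group, and each line stands for 1 derivation, so a difference between the lines is a difference between these 2 cultures. The labels name replicates without saying that they came from separate cultures, so each p-value measures only the spread between these libraries. XR-seq samples of the series were not analysed here.

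ZFP36 (tristetraprolin), ZFP36L1 and ZFP36L2 are RNA-binding proteins with tandem CCCH zinc fingers. They bind AU-rich elements in the 3′ untranslated region (3′UTR) of an mRNA and bring in the CCR4-NOT deadenylase, after which the mRNA is decapped or degraded by the exosome. Many of their known targets encode short-lived cytokines, growth regulators and transcription factors. ZFP36 itself is an early-response gene whose own mRNA carries AU-rich elements, and the p38 MAPK and MAPKAPK2 kinases phosphorylate ZFP36 and restrain its activity.

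All 3 mRNAs contained 1 copy of the 9-base element that these proteins bind best, TTATTTATT in DNA letters, within the 3′UTR of the GENCODE 44 canonical transcript on hg38. The sites are shown because the members carry in their own mRNA the element through which they act. Capitals mark the element in each window of 30 bases, written 5′ to 3′ on the strand of the gene:
ZFP36: tatgacgactTTATTTATTctaatatgatt
ZFP36L1: aactgttggaTTATTTATTttagaaattcc
ZFP36L2: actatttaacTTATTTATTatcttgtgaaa
The window of ZFP36 lies at chr19:39409196-39409225 on the plus strand, and its element starts at base 507 of a 3′UTR of 708 bases. The window of ZFP36L1 lies at chr14:68788076-68788105 on the minus strand, with the element at base 1438 of 1871. That of ZFP36L2 lies at chr2:43223447-43223476 on the minus strand, with the element at base 853 of 1917. Among 14092 genes of the table with an annotated 3′UTR, 9.4% had at least 1 such element. The shorter pentamer ATTTA occurred 5 times in the 3′UTR of ZFP36, 8 times in that of ZFP36L1 and 5 times in that of ZFP36L2, against a median of 2 over these genes. The presence of the letters is a description of the sequence and was not a measurement of binding.

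The genes are short. ZFP36 (ENSG00000128016) spans 2566 bp at chr19:39406847-39409412, ZFP36L2 (ENSG00000152518) spans 4205 bp at chr2:43222402-43226606, and ZFP36L1 (ENSG00000185650) spans 8594 bp at chr14:68787660-68796253. RefSeq promoter sequences (GRCh38.p14) matched 2 of the members by symbol. The 250 bases before the RNA start are shown because the start peaks described further on cover all or a small part of them. Capitals mark the matches, on either strand, to a GC box, a TATA core or a cyclic AMP response element (CRE). For ZFP36 the window is chr19:39406597-39406846 on the plus strand, and for the inner start of ZFP36L1 it is chr14:68793417-68793666 on the minus strand:
ZFP36: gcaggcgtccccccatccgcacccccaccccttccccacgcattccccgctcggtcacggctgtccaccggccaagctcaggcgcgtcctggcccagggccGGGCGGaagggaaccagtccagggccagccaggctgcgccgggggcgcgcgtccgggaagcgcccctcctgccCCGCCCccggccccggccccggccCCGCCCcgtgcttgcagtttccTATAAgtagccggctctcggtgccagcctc
ZFP36L1: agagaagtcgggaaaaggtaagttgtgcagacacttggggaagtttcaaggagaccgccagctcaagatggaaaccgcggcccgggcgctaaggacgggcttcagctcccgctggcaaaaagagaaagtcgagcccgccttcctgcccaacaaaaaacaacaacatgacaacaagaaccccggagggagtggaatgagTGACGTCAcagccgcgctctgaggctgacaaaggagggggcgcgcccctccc
The ZFP36 window was 76.4% G and C, against a median of 58% over 35116 RefSeq promoters, and that of ZFP36L1 was 58.4%. ZFP36 held 3 GC boxes (GGGCGG, or its complement CCGCCC). For this and the other motifs, the 250 bases before each start were searched, and 42.64% of promoters held a GC box. Its TATA core, TATAA, began 30 bases before the RNA start, and 18.93% of promoters held one. The CRE of ZFP36L1, TGACGTCA, began 52 bases before the inner start, and 1.65% of promoters held one. Its letters include the shorter TGACG, which is in 21.22% of promoters. In these windows the AP-1 site (TGACTCA), the CArG box, the NF-kB site and the E box CACGTG were searched as well and had no match, and 4.2%, 1.16%, 9.96% and 6.34% of promoters held them. The outer start of ZFP36L1 had a TGACG and a CCAAT, found in 32.01% of promoters, and no GC box, TATA core or CRE.

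Counted reads per library ranged from 4130644 to 5072216, and the members had 191 to 1287 of them in a library. Of 12 pairs of libraries within a group, 7 differed by less than the counting noise, with 0.748 to 1.45 times that noise over the 12 pairs. Counting the closest pair as 1 library in the 3 groups where another pair exceeded the noise changed no call of a member. The group left as it was is A2780 control, whose 3 pairs all lay under the noise (0.748 to 0.832 times). The check therefore does not cover that group. Of the epithelial markers checked, KRT18 was listed at 25.5 to 146 mean normalized counts per group and EPCAM at 0.647 to 4.17, and CDH1 and PAX8 had no row. PAX2 stood at 1066 in A2780 control and 0 in Acis control, and COL1A2 at 787 and 0, so the lines were easily told apart. The 4 fibroblast markers were listed at 46.2 to 844 in A2780 control and 3.21 to 16.4 or 0 in Acis control. Immune markers had no row or reached at most 5.44, and the 3 endothelial markers had no row. In the text, a normalized count is a raw count after TMM scaling to a library of average size, and a gene is called when the edgeR quasi-likelihood test gives an adjusted p under 0.05 over 15760 tested genes.

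ZFP36 mRNA rose most of the family, and it did so in A2780. In A2780 control, the 3 libraries had 212, 241 and 237 normalized counts. After cisplatin they had 531, 505 and 520. Every treated library was above 2 times the level of each control library, and the group means were 230 ± 16 and 519 ± 12.7 (SD, n = 3). The log2 fold change was 1.18 (SE 0.06, adjusted p = 2.46e-14 by edgeR), which is 2.26-fold higher, with a 95% interval of 1.03 to 1.32. ZFP36 thereby passed both the adjusted p and an absolute log2 fold change of 1, as 4.14% of tested genes did upward in this comparison. Of 10898 genes with a mean of at least 50 counts, 66 had a log2 fold change at least as high, itself included, which is 0.606%. In bulk RNA, a smaller number of cells with a transcript and less of it per cell cannot be told apart.

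In Acis, ZFP36 rose less. The control libraries had 226, 213 and 218 normalized counts, and the treated libraries had 236, 270 and 283. The treated libraries were all above the controls, although the lowest of them exceeded the highest control by little. Means were 219 ± 6.64 and 263 ± 24.1 (SD, n = 3), a log2 fold change of 0.26 (SE 0.08, adjusted p = 0.0116 by edgeR). This call was lost with DESeq2 (0.24, adjusted p = 0.115), without Acis control replicate 2 (0.24, adjusted p = 0.0605) and without Acis cisplatin replicate 3 (0.21, adjusted p = 0.0754). The difference between the lines in response was tested directly as an interaction, the log2 fold change in Acis minus that in A2780. It was -0.91 (SE 0.10, adjusted p = 5.84e-07 by edgeR, 95% interval -1.14 to -0.68), and 69 of 10898 genes (0.633%) had a value this low or lower.

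The untreated lines had similar ZFP36 levels. The log2 difference of Acis control from A2780 control was -0.07 (SE 0.08, adjusted p = 0.484 by edgeR), with overlapping libraries and a 95% interval of -0.25 to 0.11. After cisplatin, ZFP36 was lower in Acis than in A2780, with a log2 difference of -0.98 (SE 0.06, adjusted p = 4.52e-14 by edgeR), or 0.507-fold. From lowest to highest, the order of the 4 groups was Acis control, A2780 control, Acis cisplatin and A2780 cisplatin. The first neighbours in that order did not differ beyond their spread. Acis cisplatin and A2780 control overlapped, at a log2 difference of 0.19 (adjusted p = 0.0219 by edgeR), with 30.5% of genes called higher in that pairing. The call was lost with DESeq2 (0.17, adjusted p = 0.185). It was also lost without A2780 control replicate 1 (0.12, adjusted p = 0.224), without Acis cisplatin replicate 2 (0.18, adjusted p = 0.0683) and without Acis cisplatin replicate 3 (0.14, adjusted p = 0.144).

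ZFP36L2 rose after cisplatin in both lines. It had 502, 520 and 550 normalized counts in A2780 control and 684, 718 and 656 after treatment. In Acis it had 799, 782 and 736 without and 917, 904 and 912 with cisplatin. Treated libraries stood above the controls of their line without overlap, and every Acis control library was above every A2780 cisplatin library. Means were 524 ± 24.1, 686 ± 31.2, 772 ± 32.5 and 911 ± 6.45 (SD, n = 3) for untreated and treated A2780 and for untreated and treated Acis. The log2 fold change with cisplatin was 0.39 in A2780 (SE 0.05, adjusted p = 1.39e-07 by edgeR) and 0.24 in Acis (SE 0.04, adjusted p = 0.000149). The interaction was -0.16 (SE 0.06, adjusted p = 0.0949 by edgeR, 95% interval -0.30 to -0.01). That value came past the threshold when only genes with a mean of at least 50 counts were tested (-0.20, adjusted p = 0.0189), with total counts as library size (-0.22, adjusted p = 0.0167) and without Acis control replicate 3 (-0.18, adjusted p = 0.0499).

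Between untreated cells, ZFP36L2 was higher in Acis by 0.56 on the log2 scale (SE 0.05, adjusted p = 5.6e-11 by edgeR), or 1.48-fold. Under cisplatin the difference was 0.41 (SE 0.04, adjusted p = 3.29e-09 by edgeR). All neighbours in the order from A2780 control to A2780 cisplatin, Acis control and Acis cisplatin differed. The step of 0.17 between A2780 cisplatin and Acis control (adjusted p = 0.00143 by edgeR, where 33.2% of genes were higher in Acis control and 33.6% were higher without overlap) fell to 0.06 with total counts as library size (adjusted p = 0.214).

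ZFP36L1, which had the highest raw counts of the family, rose in A2780 and had no called change in Acis. Its normalized counts were 902, 843 and 908 in A2780 control and 1134, 1083 and 1123 after cisplatin, again without overlap. In Acis it had 1264, 1265 and 1274 in the controls and 1195, 1229 and 1264 in the treated libraries. The Acis control libraries were within 10 normalized counts of each other, and the highest treated library lay just under them. Means were 885 ± 35.9, 1113 ± 26.5, 1268 ± 5.51 and 1229 ± 34.6 (SD, n = 3) in A2780 control, A2780 cisplatin, Acis control and Acis cisplatin. The log2 fold change was 0.33 in A2780 (SE 0.04, adjusted p = 4.01e-08 by edgeR), and in Acis it was -0.04 (SE 0.04, adjusted p = 0.434, 95% interval -0.13 to 0.04). With total counts as library size the value in Acis was 0.01 (adjusted p = 0.892), so its sign was not fixed. The interaction was -0.38 (SE 0.05, adjusted p = 1.03e-05 by edgeR).

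ZFP36L1 was higher in untreated Acis than in untreated A2780 by 0.52 on the log2 scale (SE 0.04, adjusted p = 2.05e-12 by edgeR), or 1.43-fold. Under cisplatin the lines differed by 0.14 (SE 0.04, adjusted p = 0.00101 by edgeR). The levels rose in the order A2780 control, A2780 cisplatin, Acis cisplatin and Acis control, and the last neighbours were the pair that did not differ beyond the test. The difference of 0.19 between Acis control and A2780 cisplatin (adjusted p = 4.78e-05 by edgeR) fell to 0.08 with total counts as library size (adjusted p = 0.0508).

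**Figure D1:**
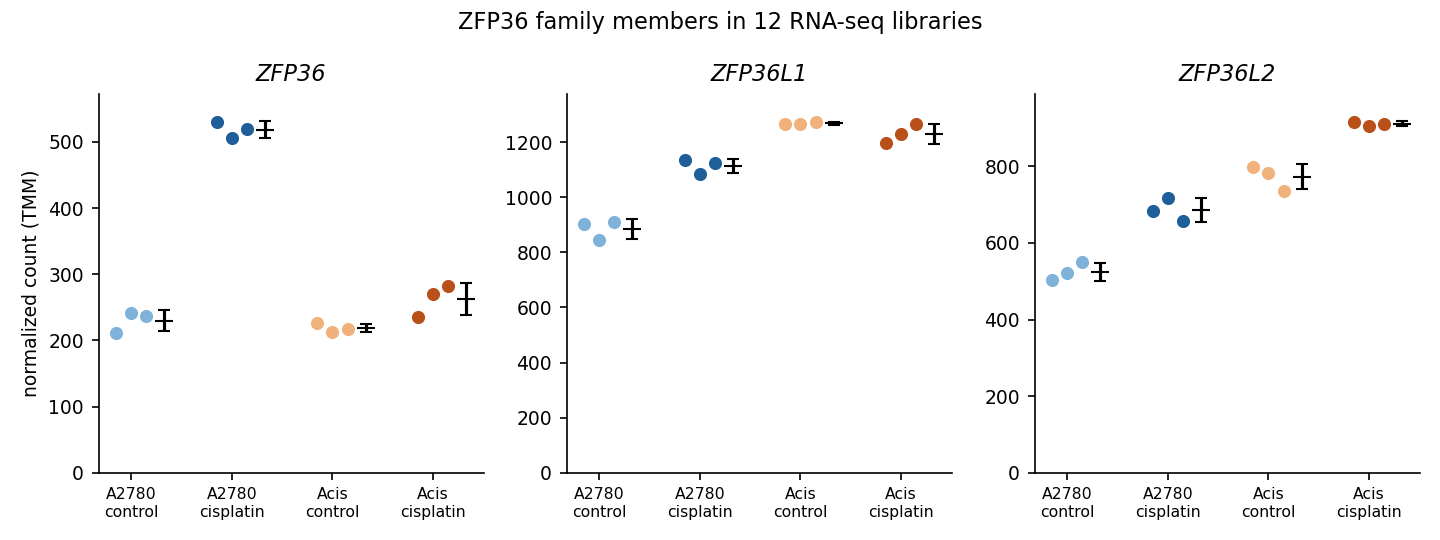
Normalized counts (TMM scaling, linear axis from 0) of the 3 members in the 12 RNA-seq libraries. Each coloured point is a library and the black bar beside it is the group mean with its SD (n = 3). ZFP36 stands at 505 to 531 in A2780 cisplatin and at 212 to 283 in the other groups, and ZFP36L1 and ZFP36L2 have their lowest values in A2780 control.

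Counted together, 3 of 3 members were called higher after cisplatin in A2780, where 21.2% of tested genes were called higher and 28.2% lower. In Acis 2 of 3 were called higher, against 9.35% of genes (12.4% were lower). In the untreated lines 2 of 3 were higher in Acis, against 28.2% of genes (30.6% were lower). Under cisplatin 2 were higher and 1 was lower in Acis, against 31.8% and 31.2%. The interaction was called lower for 2 members, against 5.48% of genes, and 13.4% were called higher. The treated libraries were all above the controls for 3 members in A2780, as for 26.2% of tested genes, and for 2 in Acis, as for 16.9%. For ZFP36L1 they were all below in Acis, as for 17.4% of genes. These backgrounds depend on the scaling. With total counts as library size, the split of higher to lower calls moved from 3347 and 4451 to 5302 and 3060 in A2780, from 1474 and 1962 to 2346 and 1411 in Acis, and from 2113 and 863 to 1463 and 1572 in the interaction, and the median log2 fold change of all genes in A2780 moved from -0.01 to 0.10. The calls of the 3 members in these 3 comparisons kept their side of the threshold under that scaling, with the exception of ZFP36L2 in the interaction.

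Gene length moved with the result. The members span under 10 kb, and of 3870 tested genes with a span of 1 to 10 kb, 43.8% were called higher and 6.2% lower after cisplatin in A2780, with a median log2 fold change of 0.22. In Acis these shares were 14.9% and 2.58%, with a median of 0.09. In the interaction 12.4% were lower and the median was -0.13. The values of ZFP36L1 and ZFP36L2 in A2780 (0.33 and 0.39) were nearer to that median than the 1.18 of ZFP36. The part of gene length in the members' values was not tested.

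**Figure D2:**
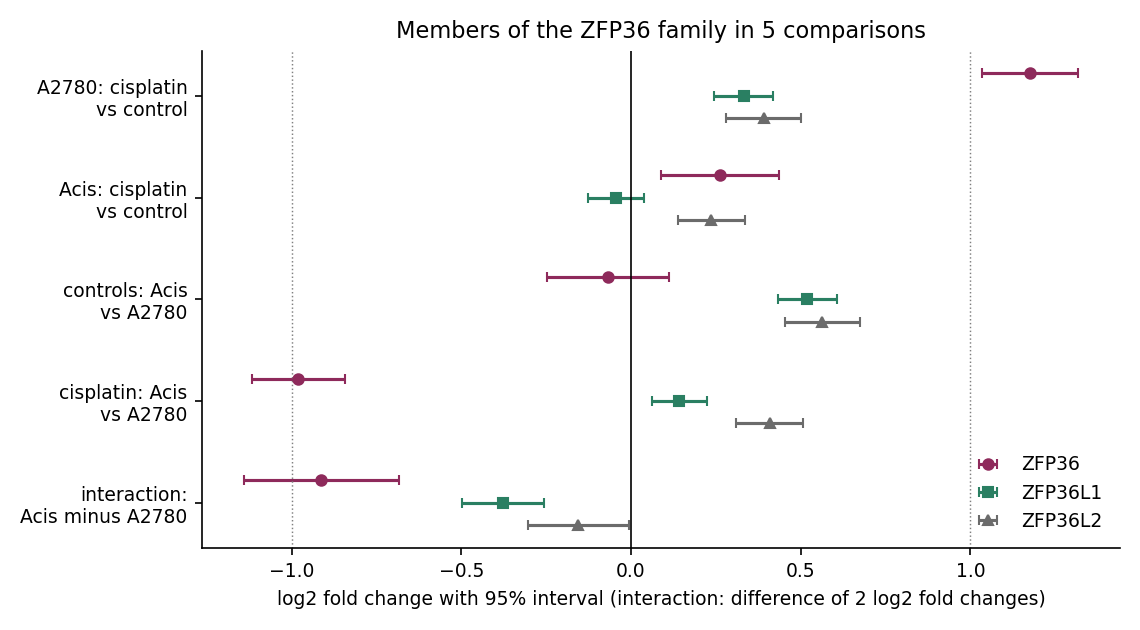
Log2 fold changes of the 3 members in 4 comparisons and in the interaction (the log2 fold change with cisplatin in Acis minus that in A2780), from the edgeR fit. Points are estimates, bars are 95% intervals from their standard errors, and dotted lines mark an absolute log2 fold change of 1. Only the value of ZFP36 in A2780 (1.18) lies past that line, and ZFP36L1 and ZFP36L2 lie at 0.52 and 0.56 between the untreated lines, where ZFP36 lies at -0.07.

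The levels of the members were compared with each other per length. Per kilobase of annotated exon, A2780 control cells had 116 ± 8.08 normalized counts of ZFP36, 137 ± 5.55 of ZFP36L1 and 142 ± 6.53 of ZFP36L2 (SD, n = 3). After cisplatin, A2780 cells had 262 ± 6.45 of ZFP36, 172 ± 4.1 of ZFP36L1 and 186 ± 8.44 of ZFP36L2. On this scale ZFP36 went from the lowest to the highest of the family in A2780. Acis control cells had 111 ± 3.36, 196 ± 0.852 and 209 ± 8.81, and Acis cisplatin cells had 133 ± 12.2, 190 ± 5.36 and 247 ± 1.75 in the same order of members. The order of the members depends on the length used. Per kilobase of the longest transcript, ZFP36, ZFP36L1 and ZFP36L2 had 131 ± 9.11, 195 ± 7.9 and 142 ± 6.53 in A2780 control and 296 ± 7.27, 245 ± 5.84 and 186 ± 8.44 after cisplatin, so that ZFP36 again went from lowest to highest but ZFP36L1 stood above ZFP36L2. In counts not divided by length, ZFP36 was the lowest and ZFP36L1 the highest in all 4 groups. Per exon kilobase, the 3 members together reached 395 ± 13.4 without and 620 ± 7.72 with cisplatin in A2780, and 516 ± 9.93 and 570 ± 16.6 in Acis.

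ZFP36 made up 29.5% ± 1.52 of the family's level per exon kilobase in A2780 control and 42.3% ± 0.786 in A2780 cisplatin (SD, n = 3). In Acis it made up 21.5% ± 0.472 and 23.3% ± 1.5, and these groups overlapped. ZFP36L2 took 40.5% ± 1.01 in Acis without and 43.3% ± 1.44 with cisplatin, the largest share per exon kilobase. Per kilobase of the longest transcript ZFP36L1 was the larger in Acis, at 279 ± 1.21 against 209 ± 8.81 in the controls and 271 ± 7.63 against 247 ± 1.75 after cisplatin. The share of ZFP36 differed by 12.8 percentage points with treatment in A2780 and by 1.86 in Acis. With 3 libraries against 3, an exact two-sided permutation test cannot give less than p = 0.1, so it could not pass 0.05 for any share, and its values do not show whether the shares differed. The exact test gave p = 0.1 in 11 of 12 comparisons (adjusted 0.109) and p = 0.3 for ZFP36 in Acis (adjusted 0.3). Lengths matter for these shares, since ZFP36L1 has 6466 bp of annotated exon but a longest transcript of 4539 bp. With raw counts and no division by length, the rise in the share of ZFP36 in A2780 was 8.33 percentage points.

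**Figure D3:**
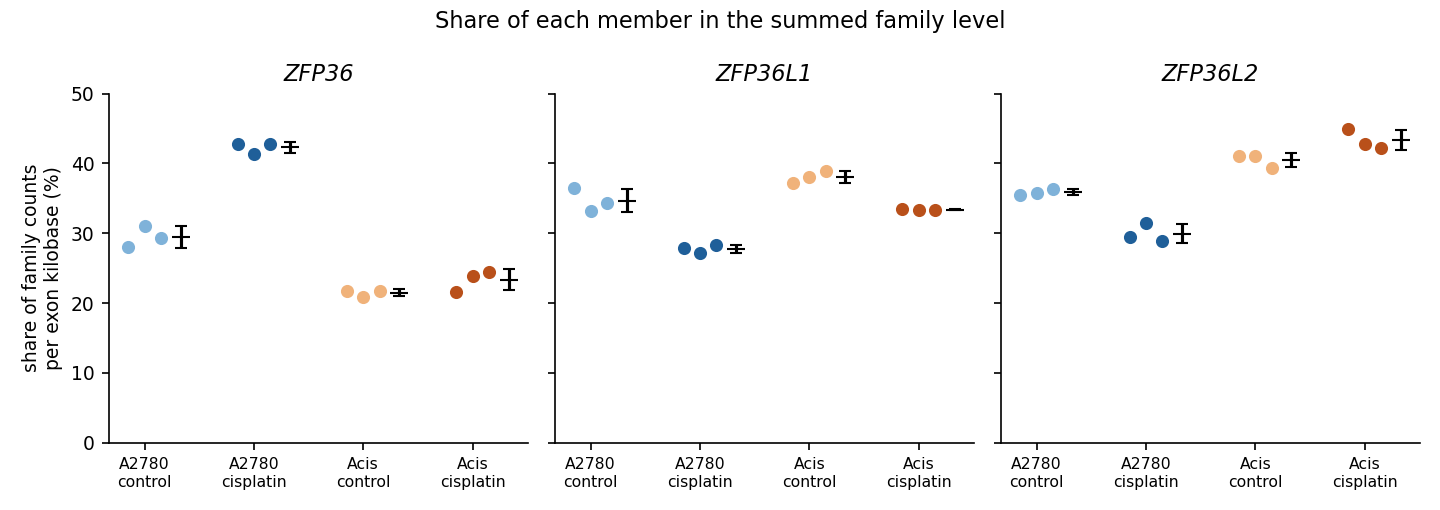
Share of each member in the summed family level per exon kilobase, in percent, for the 12 libraries. Points are libraries and black bars are group means with SD (n = 3). ZFP36 takes 41.4% to 42.8% in A2780 cisplatin and 20.9% to 31.0% elsewhere, and ZFP36L2 takes 39.4% to 44.9% in the Acis groups.

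ATAC-seq maps open chromatin by where a transposase can cut DNA, and 1 peak list per condition was used, so peaks could be compared only as listed. The list of A2780 control held 34979 peaks, and there were 32159 for A2780 cisplatin, 24485 for Acis control and 27321 for Acis cisplatin. Each list keeps regions found in all replicates, of which there were 3 without and 2 with cisplatin. There was no replicate value for a peak, and no test was made. Of the tested genes, 69.4% without and 70.5% with cisplatin had a peak within 1 kb of their start in A2780, and 63.1% and 67.1% did in Acis.

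ZFP36 had a peak at its start in all 4 lists. In A2780 control it lay at chr19:39406514-39407215 and covered the whole promoter window shown above, with a fold enrichment over local background of 3.58. After cisplatin it was listed at 3.75. In Acis it was listed at 6.37 without and 3.91 with the drug. These folds were low for their lists, whose medians were 9.96, 8.79, 12.8 and 11. The 2.26-fold rise of ZFP36 mRNA in A2780 stood beside peak folds of 3.58 and 3.75. A second peak about 3 kb before the start, between MED29 and ZFP36, was listed at 5.42, 4.46, 5.03 and 7.96 in the same order of conditions. Stronger peaks lay 9 kb before the start, within MED29 (10.3 to 15.6), and 5.5 kb after the start of ZFP36 (12.9 to 19.7). The latter lay just before the start of PLEKHG2, and only that of A2780 control reached it.

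ZFP36L1 had peaks at both of its RefSeq starts in all 4 lists. At the outer start the highest fold was 5.48 and 5.76 in A2780 without and with cisplatin, 4.50 in Acis control and 4.16 in treated Acis, where the region was split into a pair of peaks. The peak at the inner start covered the window with the CRE, for example at chr14:68792874-68793829 in A2780 control. Its fold went from 4.48 to 3.59 between the A2780 lists and from 6.58 to 6.90 between the Acis lists. The outer start was thus listed with the higher fold in the A2780 lists and the inner start in the Acis lists.

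ZFP36L2 had the least regular listing at its start. In A2780 control a peak of 1447 bp lay at chr2:43226627-43228073, before the start, with a fold of 4.42. This region also holds the start of LINC01126, a lncRNA on the other strand that begins 603 bp away. A2780 cisplatin had peaks on either side of the start, at 5.16 and 4.63. No peak was listed within 1 kb in Acis control, where ZFP36L2 mRNA was 1.48-fold higher than in A2780 control. Acis cisplatin had 1 peak within 1 kb, inside the gene, at 3.41. Just outside 1 kb, it had another at chr2:43227748-43228073, with a fold of 3.68. This other peak lies within the region of the A2780 control peak before the start. A peak about 6.8 kb after the start, past the end of the gene, was listed in all 4 conditions at 12.2, 10.9, 15.5 and 13.7. That no peak is listed says only that no region passed in all replicates. Among the 20000 peaks with the highest q-value score of each list, the start of ZFP36 kept its peak in A2780 cisplatin and Acis control. That of ZFP36L1 kept at least 1 peak in all lists, and that of ZFP36L2 kept peaks in A2780 cisplatin alone. This cut keeps more of a short list (24485 peaks in Acis control) than of a long one (34979 in A2780 control). Kept and lost peaks are therefore not compared at a like threshold.

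**Figure D4:**
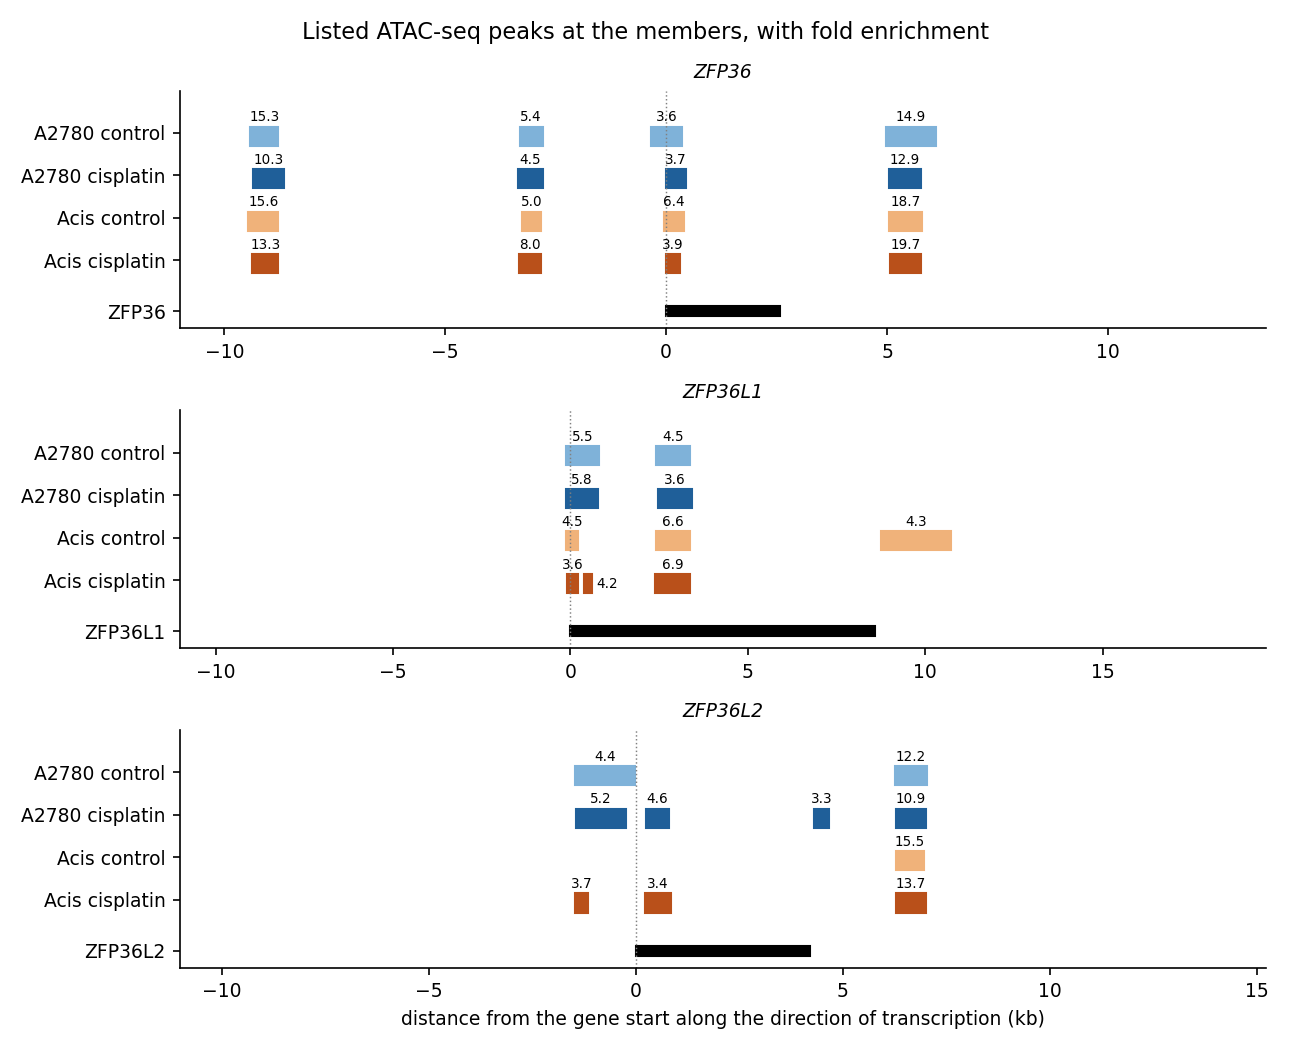
Listed ATAC-seq peaks around the 3 members, drawn to scale by distance from the gene start in the direction of transcription (kb). Rows are the 4 conditions, the black bar is the gene, and the number at each peak is its fold enrichment over local background as deposited. ZFP36 has 4 peaks in each list, and ZFP36L2 has no peak within 1 kb of its start in Acis control.

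Genes beside the members were listed as a check of the neighbourhood. MED29, a Mediator subunit gene 6205 bp before ZFP36, changed by 0.16 on the log2 scale with cisplatin in A2780 (adjusted p = 0.0167 by edgeR). PLEKHG2, 3256 bp after ZFP36, had -0.05 (adjusted p = 0.43). Both lay well under the 1.18 of ZFP36. Both were lower in untreated Acis than in untreated A2780, by -0.46 and -0.71 (adjusted p = 3.24e-07 and 7.46e-12), where ZFP36 had -0.07. LINC01126 had 8 to 53 counts per library and was called only in Acis with cisplatin (1.13, adjusted p = 0.00119 by edgeR). ENSG00000287387, which overlaps ZFP36L2 on the opposite strand, had at most 10 counts in a library, and the counting used strand. The genes nearest to ZFP36L1, ENSG00000287913 and MAGOH3P, lie over 50 kb away and had at most 14 counts in a library. ENSG00000287913, a lncRNA, had 8 to 14 counts in each A2780 library and 0 or 1 in each Acis library, and it was called lower in Acis without and with cisplatin (adjusted p = 5.37e-06 and 1.98e-06 by edgeR).

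The genes whose pattern over the 12 libraries was most like that of a member were ranked by Pearson's r of their log2 scaled counts (prior count 2) among 10898 genes. These r values are descriptions over points that share groups and libraries, and the ranks at the top are unsteady. By Spearman's rho, 0 of the 5 nearest genes were the same for each member, and with total counts as library size 3 were the same for ZFP36, 2 for ZFP36L1 and 1 for ZFP36L2. ZFP36 was followed most closely by PPP1R15A (GADD34, a phosphatase subunit of the stress response), with r = 0.977, then FAM53C, ZNF408, TMEM11 and TSPYL2 at 0.972 to 0.966. PPP1R15A went from 156 ± 16.2 to 531 ± 6.66 normalized counts with cisplatin in A2780, and from 131 ± 15.4 to 187 ± 8.80 in Acis (SD, n = 3). ZFP36L1 was most like SLC39A7, a zinc transporter, at 0.984, followed by SH3BGRL3, DOK1, NAB2 and CKB. ZFP36L2 was most like NQO2, a quinone reductase, at 0.988, followed by CISH, HES7 and MYLIP. Among the members, ZFP36L1 and ZFP36L2 had r = 0.900 with each other, and ZFP36 had 0.0403 with ZFP36L1 and 0.0107 with ZFP36L2.

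The partners of the family in mRNA decay were described from lists of genes. The deadenylation list holds subunits of CCR4-NOT and PAN2-PAN3 with the BTG and TOB adaptors that bind CCR4-NOT. Of its 19 tested genes, 5 were called higher and 8 lower after cisplatin in A2780, with a median log2 fold change of -0.02 against -0.01 over all genes. Over all genes 21.2% were higher and 28.2% lower, so the number higher was near the background. In Acis 4 were higher and 6 lower, against 9.35% and 12.4% of all genes, with a median of -0.03 against 0.01. All the genes called higher in either line were BTG or TOB adaptors, and none was a CCR4-NOT or PAN2-PAN3 subunit. Gene span differed as well. The genes called higher span 4112 (BTG2) to 19293 bp (BTG3), and those called lower in A2780 span 83980 (CNOT6) to 197029 bp (PARN). CNOT3, a CCR4-NOT subunit gene of 17933 bp, was called lower in Acis (-0.19, adjusted p = 0.00909 by edgeR). Its span lies within that of the genes called higher. CNOT11, another subunit gene, of 17431 bp, was not called. The part of span in this split was not tested. BTG2, an antiproliferative p53 target, had 296 ± 4.46 normalized counts in A2780 control and 766 ± 8.39 with cisplatin, and in Acis it had 199 ± 2.48 and 449 ± 6.71 (SD, n = 3). Its log2 fold changes were 1.37 and 1.17 (adjusted p = 2.08e-18 and 1.07e-13 by edgeR). BTG1 rose by 2.07 and 1.14 and TOB1 by 0.92 and 0.52 on the log2 scale. Of the genes that fell, CNOT6L, a catalytic subunit, changed by -0.71 in A2780 and -0.21 in Acis, and CNOT1, the scaffold of the complex, by -0.30 and -0.20.

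The decapping and 5′ to 3′ decay list had 3 of 21 tested genes higher and 7 lower in A2780, and 3 higher and 2 lower in Acis, with medians of 0.04 and 0.01. The backgrounds were again 21.2% and 28.2% in A2780 and 9.35% and 12.4% in Acis, for this list and the next. The number higher in A2780 was 0 with DESeq2 and 10 when genes with a mean of at least 50 counts were tested, so that direction was not settled. XRN1, the 5′ to 3′ exonuclease, fell from 633 ± 31.7 to 383 ± 9.32 normalized counts in A2780 (SD, n = 3), a log2 fold change of -0.73 (adjusted p = 3.06e-10 by edgeR), and changed by -0.23 in Acis. DCP2, the decapping enzyme, had -0.49 in A2780 and 0.18 in Acis (interaction 0.67, adjusted p = 6.66e-07 by edgeR). GIGYF2, a translational repressor that binds ZFP36, had -0.49 and -0.38. Of 17 exosome and SKI complex genes, 4 were higher and 4 lower in A2780, and 2 were higher and 1 lower in Acis, with medians of -0.01 and 0.01. DESeq2 called 1 higher in A2780. TTC37, a SKI subunit, had -0.42 in A2780 and -0.03 in Acis.

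A list of other proteins that bind AU-rich elements or act on mRNA stability was mostly lower in A2780. It also holds ELAVL1, IGF2BP1, IGF2BP2, IGF2BP3 and YBX1, so it is not a list of decay-promoting factors alone. Of 22 tested genes, 13 were called lower and 1 higher, against 28.2% and 21.2% of all genes, with a median of -0.20 against -0.01. In Acis 7 were lower and 2 higher, against 12.4% and 9.35% of all genes, with a median of -0.09. In the interaction 8 were higher (5 with DESeq2), against 13.4%. The gene called higher in A2780 was ZC3H12A (Regnase-1, an endonuclease of inflammatory mRNAs), with 57.6 ± 5.61 normalized counts without and 127 ± 9.53 with cisplatin (SD, n = 3), a log2 fold change of 1.14, and it rose by 0.86 in Acis. RC3H1 (Roquin) had -0.61 in A2780 and -0.12 in Acis, with an interaction of 0.49 (adjusted p = 2.33e-06 by edgeR). CELF1 and PUM2 had -0.40 and -0.38 in A2780.

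The list of kinases, phosphatases and adaptors that act on ZFP36 had 3 of 22 tested genes higher and 7 lower in A2780, and 1 higher and 1 lower in Acis, with medians of -0.06 and -0.01. The A2780 counts lay near the backgrounds of 21.2% and 28.2%, and in Acis these were 9.35% and 12.4%. With a mean of at least 50 counts, 7 were higher and 4 lower in A2780. DUSP1, the phosphatase that turns off p38, had 45.4 ± 5.37 normalized counts in A2780 control and 291 ± 20.5 after cisplatin. In Acis it had 70.5 ± 5.38 and 140 ± 10.0 (SD, n = 3). Its log2 fold changes of 2.67 and 0.99 differed, with an interaction of -1.68 (adjusted p = 1.14e-07 by edgeR). MAPK14 (p38 alpha) had -0.36 in A2780 and -0.12 in Acis. MAPKAPK2, the kinase of ZFP36, named here after its values were seen, had -0.05 and -0.09 and was not called. MAP2K6, a p38 activator, had 1020 ± 11.6 normalized counts in A2780 control and 32 ± 6.13 in Acis control, a log2 difference of -4.99 (adjusted p = 1.42e-26 by edgeR).

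Published target mRNAs of the family were taken from a list of 43 genes, of which 30 had a row and 29 were tested. Absent from the table were most of the cytokine targets, TNF, IL6 and CXCL8 among them. The list includes ZFP36 and ZFP36L1 themselves and DUSP1, and many of its genes respond early to stress, so its changes are no measure of ZFP36 activity. In A2780, 16 were called higher and 6 lower, with a median log2 fold change of 0.33 against -0.01 over all genes. The background was 21.2% higher and 28.2% lower, and of genes spanning 1 to 10 kb 43.8% were higher. In Acis 13 were higher (8 with DESeq2) and 2 lower, against 9.35% and 12.4% of all genes, with a median of 0.20. In the interaction 9 were lower and 3 higher, against 5.48% and 13.4%, with a median of -0.02 against 0.03.

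FOS, an AP-1 subunit with 1 copy of the element in its 3′UTR, had 73.7 ± 1.92 normalized counts in A2780 control and 828 ± 6.01 in A2780 cisplatin, and 74.1 ± 6.43 and 270 ± 7.52 in Acis (SD, n = 3). Its log2 fold changes were 3.49 and 1.87, with an interaction of -1.62 (adjusted p = 4.51e-09 by edgeR). JUN rose by 3.72 in A2780 and 1.16 in Acis, from 10.6 ± 2.21 and 60.7 ± 10.6 normalized counts, and reached 139 ± 17.4 and 136 ± 6.02. MAFF and PLK3 rose by 1.56 and 1.91 in A2780 and by 0.86 and 1.33 in Acis. FOSL1 rose by 1.01 and 0.65, with an interaction of -0.36 that was not called (adjusted p = 0.265 by edgeR). MYC and CCND1, chosen here after their values were seen, had -0.04 and 0.02 in A2780 and were not called in either line. NOTCH1, chosen likewise, had the lowest value of the list in A2780, -0.79.

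**Figure D5:**
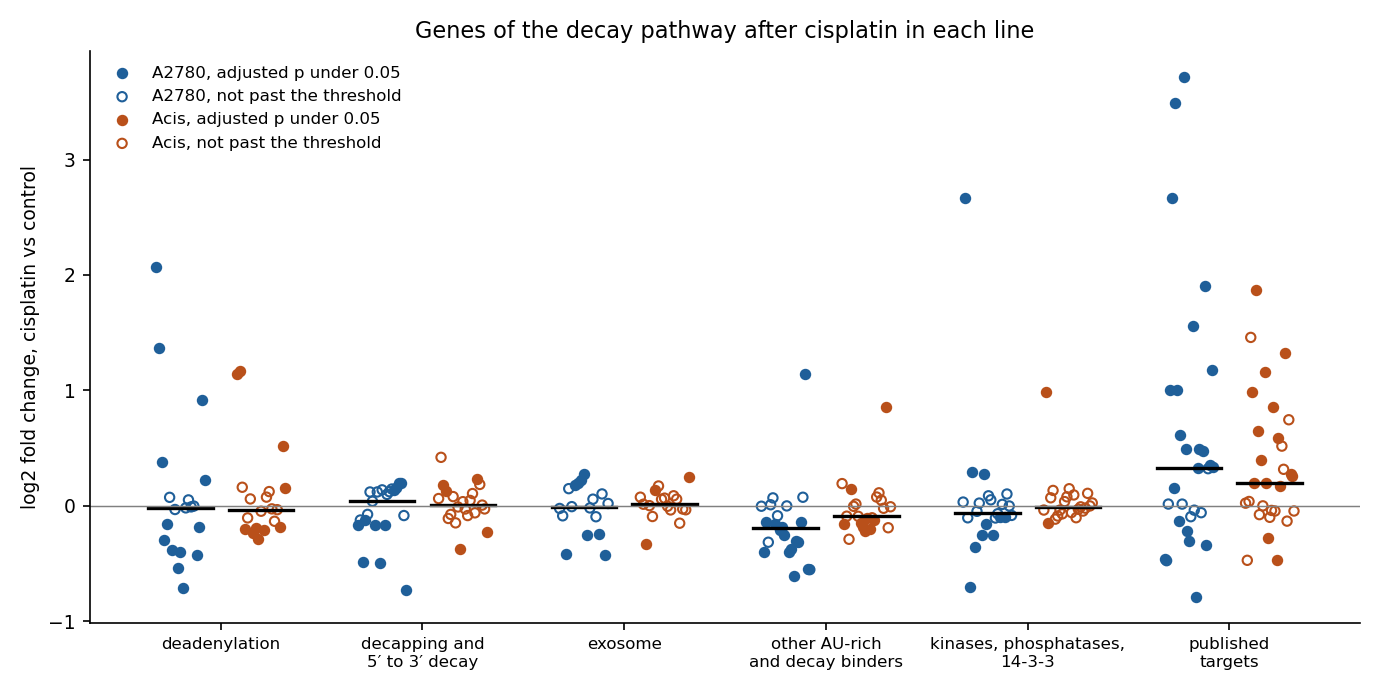
Log2 fold changes with cisplatin of the tested genes in 6 lists of the decay pathway, for A2780 and Acis. Filled points have an adjusted p under 0.05, open points do not, and black lines are medians. The published targets have medians of 0.33 in A2780 and 0.20 in Acis, and the other lists have medians between -0.20 and 0.04.

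Over all tested genes with an annotated 3′UTR, those with at least 1 copy of the element numbered 1165. After cisplatin in A2780, 13% of them were called higher and 51.5% lower, with a median log2 fold change of -0.24, while of 11017 genes without the element 21.5% were higher and 31.5% lower, with a median of -0.03. In Acis 13.6% were higher and 19.7% lower, against 8.46% and 14.5%. Gene span moved with this difference, since the median span was 51616 bp with and 31709 bp without the element. Among genes under 10 kb, where the members lie, 61.2% of 103 genes with the element and 54% of 2169 without it were called higher in A2780. In Acis 38.8% and 14.8% of these short genes were called higher. At 10 to 50 kb the direction in A2780 was the other one. There 17% of 464 genes with and 23% of 4837 without the element were called higher, and 31% and 17.7% lower. In Acis 21.8% and 10.8% of the genes of this class were called higher. Among genes of 50 kb or more, 75.6% of 598 with and 62.8% of 4011 without the element were called lower in A2780. The classes of span were chosen after the data were seen. These shares are descriptions over genes, and what part the element has in them was not tested.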

How the data were processed

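RNA-seq counts per gene were made by the authors from ribosomal RNA-depleted stranded libraries with STAR, Picard removal of duplicates and reverse-stranded htseq-count on hg38, and were deposited raw. As deposited by the authors, ATAC-seq peaks carry a fold enrichment, a -log10 p-value and a -log10 q-value from MACS2, with 1 list per condition. The q-values were used only for an alternative that kept the 20000 strongest peaks.

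Counts were analysed in R 4.3.3 with edgeR 4.0.16 (TMM, default filter on low counts, 15760 genes, model of 4 groups over 12 libraries, 8 residual degrees of freedom, quasi-likelihood test, Benjamini-Hochberg adjustment). Alternatives were DESeq2 1.42.0, other scalings and filters, fits to 2 groups, a replicate block, summed replicates and leaving out each library. 3′UTRs were read from GENCODE 44 on hg38, the build of the files. Python 3.11.15 and matplotlib 3.10.9 were used. The files hold 0 columns of other samples.

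The members and gene lists were chosen with earlier results of these data known. Named genes are, per list, the 5 with the smallest adjusted p in the interaction or a cisplatin comparison among those with a mean of at least 50 counts, those past both thresholds with that mean, the 5 genes most like each member, and the nearest genes. Some genes that this rule names are not reported here. Libraries of the same number deviated together by r = -0.205 to 0.282. Libraries of different numbers were not compared in this way, so these values do not settle whether the numbers pair them.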

Additional observations from a re-analysis of the deposited data

Results flagged for a closer look

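A cisplatin effect that differed between the lines in the interaction test (adjusted p under 0.05, edgeR) was seen for the genes given here. Values are the log2 fold change in Acis minus that in A2780. Of the members, ZFP36 had -0.91 and ZFP36L1 -0.38.

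Among the deadenylation genes the value was -0.40 for TOB1, -0.93 for BTG1 and 0.50 for CNOT6L. Among the decapping and exosome genes it was 0.50 for XRN1, 0.67 for DCP2, 0.25 for DDX6, 0.39 for TTC37 and 0.25 for EXOSC6. Of the other binding proteins, RC3H1 had 0.49, CELF1 0.24 and PUM2 0.27. Of the kinases and phosphatases, DUSP1 had -1.68, MAP2K6 0.78, MAPK14 0.24 and PPP2R1B 0.34. Of the published targets, FOS had -1.62, JUN -2.56, MAFF -0.70 and PLK3 -0.58. These list genes were named partly for a small adjusted p in this same test. Their calls here are therefore no independent result.

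Among the genes with the pattern of a member, PPP1R15A had -1.25, FAM53C -0.31, ZNF408 -0.64, TMEM11 -0.32 and TSPYL2 -0.72, all listed for ZFP36. Of those listed for ZFP36L1, SLC39A7 had -0.20, DOK1 -0.64, NAB2 -0.26 and CKB -0.34. Of those listed for ZFP36L2, CISH had -0.44, HES7 -0.46 and MYLIP -1.76. These genes were picked for likeness over the same libraries, so their interaction is no independent result.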

How the results depend on the processing

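The 21 member results (3 members in 7 comparisons) kept their direction and side of the threshold with RLE size factors, without a filter, with summed closest replicates and, for the 18 that are no interaction, in fits to the 2 groups compared. The cause of the changes below was not tested.

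With DESeq2, ZFP36 had 0.24 for cisplatin in Acis (adjusted p = 0.115) and 0.17 between Acis cisplatin and A2780 control (adjusted p = 0.185), both no longer called. With total counts as library size, ZFP36L1 had 0.0095 for cisplatin in Acis, with the sign turned, and 0.078 between Acis control and A2780 cisplatin, no longer called. ZFP36L2 then had 0.063 in that last comparison, no longer called, and -0.22 in the interaction, now called. With genes of a mean of at least 50 counts, ZFP36L2 had -0.20 in the interaction, now called. Leaving out 1 library gave 0.21 to 0.33 for ZFP36 in Acis, 0.12 to 0.27 for ZFP36 between Acis cisplatin and A2780 control, and -0.19 to -0.12 for ZFP36L2 in the interaction.

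Whether libraries of the same replicate number form pairs was not settled. With a replicate block, ZFP36 had 1.17 in A2780 (adjusted p = 7.15e-14 by edgeR) and 0.26 in Acis, and no call of a member changed.

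Genes higher with cisplatin numbered 2024 in A2780 with DESeq2 and 5302 with total counts, against 3347, and in Acis 537 and 2346, against 1474. In the interaction, 1090 were higher with DESeq2, against 2113. Against 863 lower, there were 294 with DESeq2, 1572 with total counts, 1427 with a mean of at least 50 counts and 525 to 926 without 1 library (525 without Acis control replicate 1 and 550 without Acis cisplatin replicate 2).

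For the share of the family, raw counts not divided by length gave a treated minus control difference in A2780 of 8.33 percentage points for ZFP36 and -2.37 for ZFP36L2, and the longest transcript as length gave -4.75 for ZFP36L2. Between the untreated lines, no division gave -4.35 for ZFP36 and 2.21 for ZFP36L2, and the longest transcript gave 3.78 for ZFP36L2. Between the treated lines, no division gave -11.4 for ZFP36, 3.13 for ZFP36L1 and 8.31 for ZFP36L2, and the longest transcript gave 6.84 for ZFP36L1 and 11.4 for ZFP36L2.

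Signs turned for values near 0 of other named genes, and for ENSG00000287913 in the interaction, a poorly estimated value (-1.75, SE 1.41). For cisplatin in Acis, total counts gave 0.027 for LSM14A, 0.020 for TTC37, 0.051 for EXOSC6, 0.048 for SH3BGRL3 and 0.024 for NAB2. A mean of at least 50 counts gave 0.0065 for EXOSC6 and 0.0037 for SH3BGRL3, and a fit to the 2 groups gave 0.000167 for EXOSC6. SLC39A7 had -0.018 with DESeq2, -0.0090 with RLE, -4.4e-05 with summed replicates and -0.0022 without a filter. PLEKHG2 in A2780 had 0.010 with a mean of at least 50 counts and 0.068 with total counts, and in the interaction 0.010 without a filter. Leaving out 1 library in turn gave, in Acis, -0.068 to 0.00090 for LSM14A, -0.026 to 0.021 for EXOSC6, -0.11 to 0.19 for MAP2K6, -0.11 to 0.0046 for PLEKHG2, -0.011 to 0.022 for SLC39A7, -0.026 to 0.028 for SH3BGRL3 and -0.052 to 0.11 for DOK1. It gave -0.11 to 0.012 for PLEKHG2 in A2780. In the interaction it gave -0.069 to 0.060 for PLEKHG2, -2.21 to 0.22 for ENSG00000287913 and -0.087 to 0.011 for NQO2. Of 2882 values over 49 named genes, 2754 kept direction and side of the threshold. Of the others, 33 turned sign, 84 were weaker and 11 stronger.

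At this depth, 3 libraries a group, a difference in ZFP36 of the size seen in Acis was at the limit of what was called.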
